A study of Mus musculus with 16 samples.

Results

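The report describes 4 transcripts of splenic CD11b+ myeloid cells, Retnla, Chil3, Mrc1 and Cd163, which are commonly grouped as alternative activation and scavenger receptor genes. They were taken by name from a NanoString table of 734 genes, so 4 of 734 genes are described here, and all 4 were present and none was filtered. The table holds 16 C57BL/6 mice in 4 groups of 4. Naive mice were untreated. A further 3 groups received 20000000 BALB/c splenocytes, which the sample labels describe as depleted of T cells and given intraperitoneally, whereas the study's text gives an intravenous route. BALB/c spleen cells mice (called allo in the plots) received nothing else. BALB/c spleen cells/CTLA4-Ig mice also received 150 µg of abatacept, a CTLA4-Ig fusion protein that blocks CD28 costimulation, on day 2. BALB/c spleen cells/CTLA4-Ig/EPO mice received the same CTLA4-Ig and 5000 U/kg of recombinant erythropoietin (epoetin alfa) daily. Spleen cells were collected on day 7 by positive selection on CD11b, whereas the results section of the study also calls the cells negative for CD11c, and mouse age was not given in the sources used here. The selection was not a sort to 1 cell type, and the B cell gene Ms4a1 and the T cell genes Cd247, Cd28 and Ctla4 were above the lowest count in all 16 mice.

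The letter codes of the samples conflict between 2 label fields. The protocol text assigns 1 code to naive mice and another to mice given spleen cells alone, and the sample descriptions use these 2 codes the other way round. Mice were grouped by their titles and treatment labels, which give the same groups. If the protocol text held instead, naive mice and BALB/c spleen cells mice would exchange places, and each comparison with either group would refer to the other. The comparison of EPO with CTLA4-Ig does not involve these 2 groups. As titled, limma called 0 genes between BALB/c spleen cells and CTLA4-Ig mice and 506 between CTLA4-Ig and naive mice, and no mouse was assigned from these values.

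Alternative activation is the state that macrophages enter under interleukin-4 and interleukin-13, which signal through the interleukin-4 receptor and STAT6. Retnla and Chil3 encode secreted proteins, a resistin-like molecule and a chitinase-like lectin, and Chil3 is also made by granulocyte precursors and monocytes. Mrc1 encodes the mannose receptor, an endocytic C-type lectin, and Cd163 encodes the receptor through which macrophages take up haemoglobin bound to haptoglobin.

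Because all 4 genes were higher with EPO, the promoters of the 3 members that held a searched motif are shown. RefSeq promoters (GRCm38.p6, 250 bases before to 50 after the start) were found by symbol for 4 of 4 genes. The motifs were the STAT5 spacing TTCNNNGAA, the STAT6 spacing TTCNNNNGAA, the C/EBP core TTGCNNAA and the PU.1 core GAGGAA, on both strands, and capitals mark the matches, none of which overlapped another (TTCCTC is the PU.1 core read on the other strand). Retnla lies at chr16:48842359-48842658 on the plus strand, Chil3 at chr3:106167515-106167814 on the minus strand and Mrc1 at chr2:14229164-14229463 on the plus strand.
Retnla: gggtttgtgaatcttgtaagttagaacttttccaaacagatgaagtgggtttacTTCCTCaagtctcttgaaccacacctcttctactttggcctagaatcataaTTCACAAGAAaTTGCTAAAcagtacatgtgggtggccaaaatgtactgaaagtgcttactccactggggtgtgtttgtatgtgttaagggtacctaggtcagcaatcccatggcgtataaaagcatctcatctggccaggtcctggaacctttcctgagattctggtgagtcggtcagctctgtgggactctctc
Chil3: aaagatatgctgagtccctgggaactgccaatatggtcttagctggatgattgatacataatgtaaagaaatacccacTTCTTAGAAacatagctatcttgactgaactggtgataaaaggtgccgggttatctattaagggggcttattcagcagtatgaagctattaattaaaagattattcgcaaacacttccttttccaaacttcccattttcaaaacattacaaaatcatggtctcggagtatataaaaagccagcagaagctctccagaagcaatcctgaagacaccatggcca
Mrc1: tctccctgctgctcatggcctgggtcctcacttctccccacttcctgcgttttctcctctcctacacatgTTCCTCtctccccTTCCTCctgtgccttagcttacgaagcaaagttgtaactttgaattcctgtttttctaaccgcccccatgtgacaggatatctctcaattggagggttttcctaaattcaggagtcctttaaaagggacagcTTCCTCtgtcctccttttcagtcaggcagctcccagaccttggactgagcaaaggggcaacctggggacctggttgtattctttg
Retnla held 1 match to the STAT6 spacing, TTCACAAGAA, followed closely by 1 to the C/EBP core, TTGCTAAA, and 1 to the PU.1 core. Chil3 held 1 match to the STAT5 spacing, TTCTTAGAA, and Mrc1 held 3 to the PU.1 core. Cd163 held none. Of 32851 promoters of the same length, 6.95% held the STAT6 spacing, 8.30% the STAT5 spacing, 10.8% the C/EBP core and 28.3% the PU.1 core. No motif was present in all 4 genes, and a match describes letters, not binding.

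The first question was how the 4 genes differed when EPO was added to CTLA4-Ig. All 4 were higher in the EPO group, and for each gene every EPO mouse was above every CTLA4-Ig mouse. Values are the deposited log2 values, and counts are whole probe counts recovered from them. Fewer cells of a type and less RNA per cell cannot be told apart in these bulk samples.

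Retnla was 7.97, 8.21, 8.15 and 8.12 in BALB/c spleen cells/CTLA4-Ig/EPO mice and 5.09, 5.33, 5.75 and 5.97 in BALB/c spleen cells/CTLA4-Ig mice. The EPO mice lay close together and the groups did not overlap. The log2 fold change was 2.58 ± 0.28 (SE, n = 4 per group), a 5.97-fold difference (limma adjusted *P* = 2.30e-06). These were 347 to 507 counts against 49 to 94.

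Mrc1 was 10.92, 10.86, 11.25 and 10.86 with EPO and 9.32, 9.34, 9.40 and 9.22 with CTLA4-Ig alone. Mouse 3 was the highest of the EPO group, and the groups did not overlap. Its log2 fold change was 1.65 ± 0.11 (limma adjusted *P* = 2.48e-08). Cd163 was 10.21, 10.10, 10.34 and 10.10 with EPO and 8.19, 8.75, 8.66 and 8.49 without. No value was shared between these groups either. The log2 fold change of Cd163 was 1.67 ± 0.17 (limma adjusted *P* = 1.59e-06).

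Chil3 was 11.73, 12.97, 11.99 and 12.40 with EPO and 10.84, 10.57, 10.02 and 10.30 with CTLA4-Ig alone. The EPO mice were more spread than for the other 3 genes, with an SD of 0.54 against 0.10 for Retnla, 0.19 for Mrc1 and 0.11 for Cd163. Chil3 nevertheless did not overlap, and its log2 fold change was 1.84 ± 0.37 (limma adjusted *P* = 0.000696).

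Among all 734 genes, 51.1% were called in this comparison, 22.8% higher and 28.3% lower, and 48.8% had groups that did not overlap. Genes called higher made up 44.5% of the calls, 31.3% after each mouse was centred on its median and 55.8% after scaling by total counts, and centring moved the median fold change of all genes from -0.07 to -0.28. The 4 genes were called higher under each of these scalings. Retnla was 16th from the top of the 734 fold changes, and Chil3, Cd163 and Mrc1 were at ranks 43, 49 and 50. Against BALB/c spleen cells mice without CTLA4-Ig all 4 were also higher with EPO, where 50.5% of genes were called and 22.9% were higher (45.3% of the calls, 31.7% after centring and 56.1% after scaling by total counts). The log2 fold changes there were 2.91 for Retnla, 1.77 for Chil3, 1.41 for Mrc1 and 1.55 for Cd163. These 2 comparisons share the EPO mice.

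**Figure D1:**
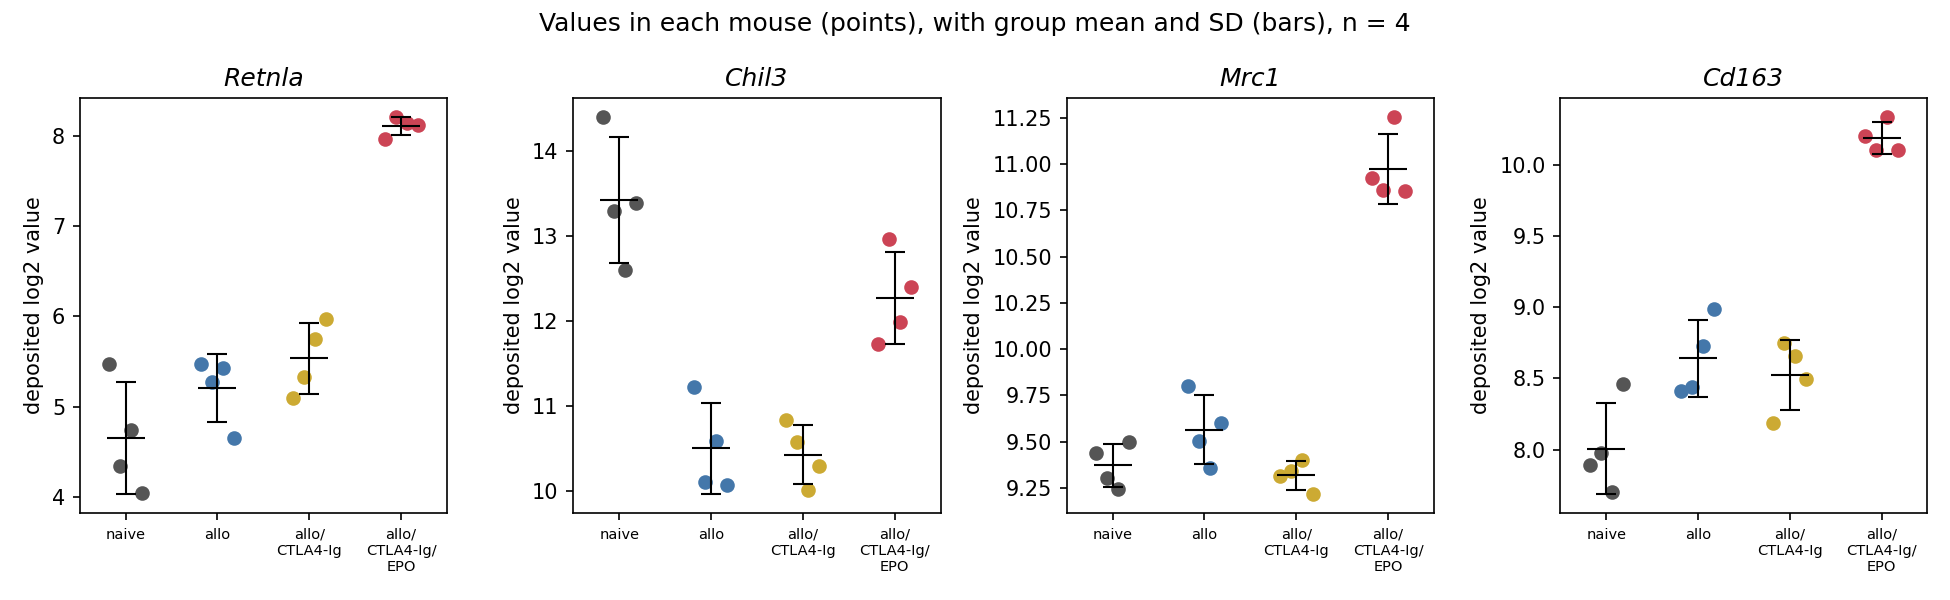
Deposited log2 value of each gene (y axis, own range per panel) in each mouse by treatment group (x axis). Points are mice, bars the group mean and SD (n = 4), and every EPO mouse lies above every CTLA4-Ig mouse in each panel.

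CTLA4-Ig alone was compared with BALB/c spleen cells alone. In BALB/c spleen cells mice Retnla was 5.48, 5.27, 5.43 and 4.65, and Chil3 was 11.23, 10.11, 10.60 and 10.08. Mrc1 was 9.80, 9.50, 9.36 and 9.60, and Cd163 was 8.41, 8.44, 8.73 and 8.98. All 4 genes overlapped with the CTLA4-Ig group. The log2 differences were 0.33 for Retnla, -0.07 for Chil3, -0.25 for Mrc1 and -0.12 for Cd163, and limma called none of them and 0% of all genes. At an unadjusted *P* of 0.05 limma gave 70 genes, Mrc1 among them, and limma-voom on the recovered counts called 0 after adjustment.

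The next question was where each gene stood relative to naive mice, and here the answer depended on the scaling between mice. On the deposited scale the median of all genes was 7.26 in naive mice, 6.53 in BALB/c spleen cells mice, 6.54 with CTLA4-Ig and 6.75 with EPO. The deposited values held 1 scaling factor per mouse, which lay between 1.27 and 1.85 for naive animals and between 0.560 and 0.791 for all others, whereas total counts overlapped between groups. The median fold change of all genes was -0.65 for BALB/c spleen cells minus naive, -0.63 for CTLA4-Ig minus naive and -0.74 for EPO minus naive. Genes called higher made up 16.9%, 15.4% and 12.9% of the calls in these comparisons, and 55.3%, 54.3% and 40.3% after centring on the median. Scaling by total counts gave 71.7%, 72.7% and 79.1%. Which scaling is right was not tested.

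In naive mice Retnla was 5.48, 4.34, 4.74 and 4.04, or 12 to 24 counts, the lowest of the 4 groups by mean. With EPO it was higher by 3.47 ± 0.28 (limma adjusted *P* = 5.21e-08) without overlap, the second largest of 734 fold changes. Median centring, quantile normalization and total-count scaling gave 3.99, 4.38 and 4.66. In BALB/c spleen cells mice Retnla exceeded naive by 0.56 ± 0.28, which limma did not call (adjusted *P* = 0.0861). In CTLA4-Ig mice Retnla was higher than naive by 0.89 ± 0.28 (limma adjusted *P* = 0.0113), although the groups overlapped, and it was 1.61 after median centring. The BALB/c spleen cells difference was called without naive mouse 1 (0.83) and without BALB/c spleen cells mouse 4 (0.74), and it was 1.29 and called after median centring. The smallest naive count, 12, has a 95% Poisson interval of 6.20 to 21.0, which covers counting error only.

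Cd163 was 7.89, 7.98, 7.70 and 8.46 in naive mice. It was above naive by 2.18 ± 0.17 with EPO (limma adjusted *P* = 4.71e-08), and those groups did not overlap. Median centring, quantile normalization and total-count scaling gave 2.70, 2.83 and 3.37. It was also higher in BALB/c spleen cells mice, by 0.63 ± 0.17 (limma adjusted *P* = 0.00482), and in CTLA4-Ig mice, by 0.51 ± 0.17 (limma adjusted *P* = 0.0169), but both of these groups overlapped with naive. The CTLA4-Ig difference was no longer called without CTLA4-Ig mouse 2 (0.44) or without naive mouse 3 (0.41). After median centring, quantile normalization and total-count scaling it was called and larger, at 1.24, 1.16 and 1.61, and the BALB/c spleen cells difference was 1.37, 1.28 and 1.72.

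Mrc1 was 9.44, 9.31, 9.25 and 9.50 in naive mice. With EPO it was higher by 1.60 ± 0.11 (limma adjusted *P* = 1.44e-08), without overlap, and by 2.12, 2.35 and 2.80 after median centring, quantile normalization and total-count scaling. The other 2 groups overlapped with naive mice, by differences of 0.19 for BALB/c spleen cells (limma adjusted *P* = 0.145) and -0.05 for CTLA4-Ig (limma adjusted *P* = 0.695). After median centring both differences were positive and called, at 0.92 and 0.67, so the position of Mrc1 in these 2 groups relative to naive turned on the scaling.

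Chil3 ran the other way. It was 14.40, 13.29, 12.60 and 13.39 in naive mice, the highest of the 4 groups. It fell by 2.92 on the log2 scale in BALB/c spleen cells mice (SE 0.37, limma adjusted *P* = 6.12e-06) and was lower by a difference of -2.99 with CTLA4-Ig, both without overlap. Under every scaling tried it was lower than naive in these 2 groups, but less so, by differences of -2.19 for BALB/c spleen cells and -2.27 for CTLA4-Ig after median centring, -2.07 and -2.17 after quantile normalization and -1.84 and -1.90 after total-count scaling. With EPO the difference from naive was -1.15 ± 0.37 (limma adjusted *P* = 0.0122), and the groups overlapped. That call was lost after median centring (-0.63) and quantile normalization (-0.32), and the sign turned when counts were scaled by their total (0.0465).

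Across all 734 genes 70.8% were called for EPO minus naive, 9.13% higher and 61.7% lower, and 62.8% did not overlap. For BALB/c spleen cells minus naive the shares were 70.3%, 11.9% higher and 58.4% lower, with 61.2% not overlapping. For CTLA4-Ig minus naive 68.9% were called, and the share not overlapping was not counted. Of the 4 genes, 4, 2 and 3 were called in these comparisons.

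On the deposited scale the order of the groups thus differed by gene. Retnla, Mrc1 and Cd163 were highest with EPO, and Chil3 was highest in naive mice, with EPO second. Below EPO, neighbouring groups were not called different for Retnla or Mrc1, and for Cd163 only CTLA4-Ig over naive was. Retnla with CTLA4-Ig was called higher than in naive mice, which are not its neighbour in that order. For Chil3, BALB/c spleen cells and CTLA4-Ig mice were not called different.

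**Figure D2:**
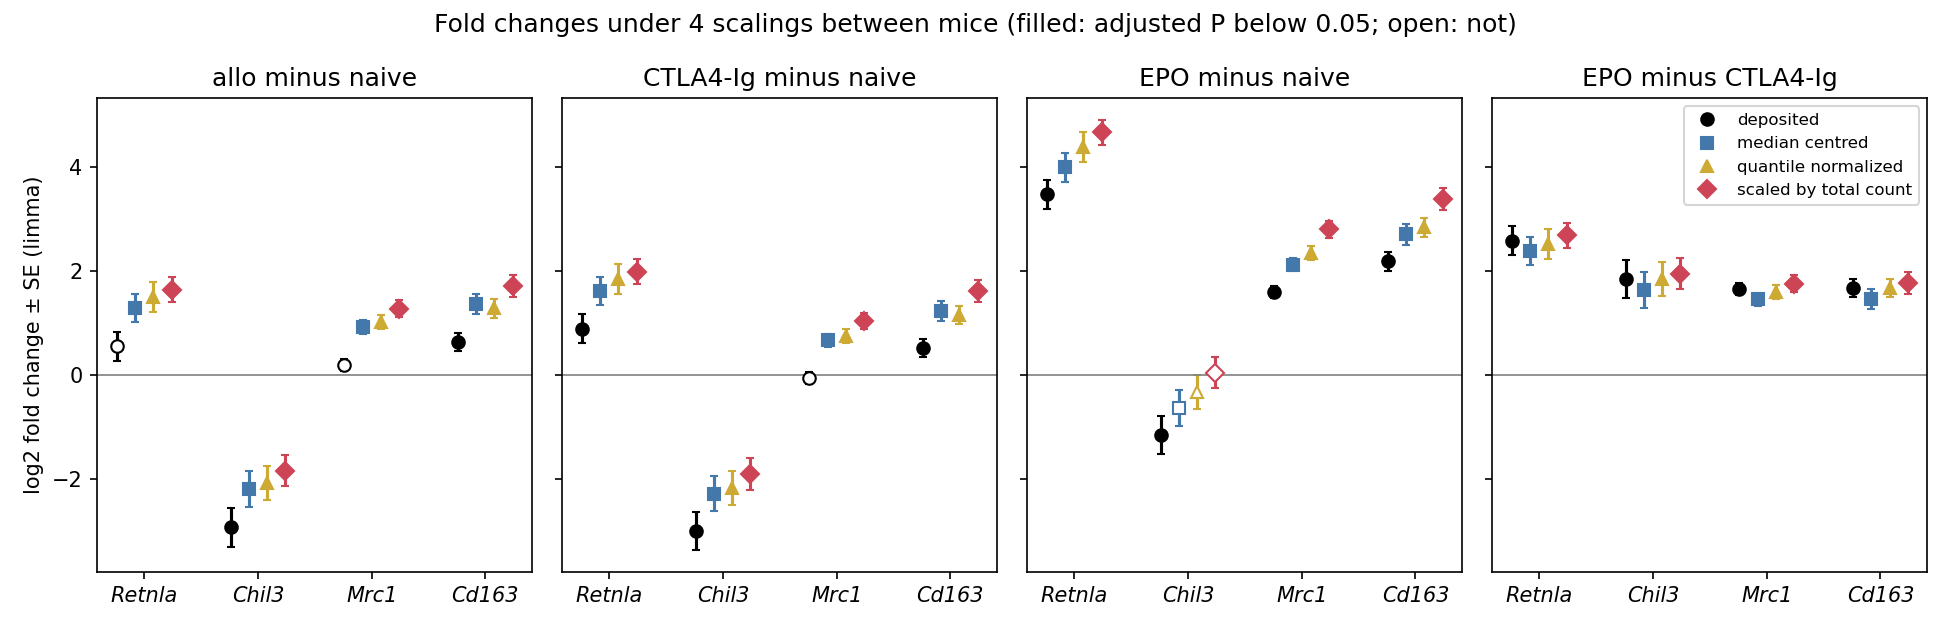
Log2 fold change ± SE (y axis) of each gene (x axis) in 4 comparisons under 4 scalings between mice, filled where the limma adjusted *P* was below 0.05. The EPO minus CTLA4-Ig values stay close to each other, whereas values against naive mice shift upward, and Chil3 minus naive with EPO goes from -1.15 to 0.0465.

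Differences between 2 genes of the same mouse do not depend on a scaling factor of that mouse. With 4 mice per group the smallest exact permutation *P* is 0.0286 (two-sided), and 18 such differences were compared, 6 in each of 3 comparisons, without adjustment. Chil3 minus Mrc1 was 4.96, 3.99, 3.36 and 3.89 in naive mice and 1.43, 0.61, 1.24 and 0.48 in BALB/c spleen cells mice. The groups did not overlap, and the difference was -3.11 ± 0.41 (SE, exact permutation *P* = 0.0286). Relative to Mrc1, Chil3 was thus lower after spleen cells under any single factor per mouse.

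With EPO, Chil3 minus Mrc1 was 0.81, 2.11, 0.73 and 1.55, also below naive mice without overlap (-2.75, exact permutation *P* = 0.0286). Against CTLA4-Ig mice it overlapped and differed by 0.19 ± 0.38 (exact permutation *P* = 0.629). Chil3 minus Cd163 gave -3.55 for BALB/c spleen cells minus naive, -3.33 for EPO minus naive and 0.18 for EPO minus CTLA4-Ig (exact permutation *P* = 0.0286, 0.0286 and 0.714). Mrc1 minus Cd163 differed by -0.01 ± 0.12 between EPO and CTLA4-Ig mice (exact permutation *P* = 0.943) and by -0.58 between EPO and naive mice (exact permutation *P* = 0.0286).

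The difference between EPO and CTLA4-Ig mice was larger for Retnla than for both receptor genes when mice were taken as unpaired. Retnla minus Mrc1 was -2.95, -2.65, -3.10 and -2.73 with EPO and -4.22, -4.01, -3.66 and -3.24 with CTLA4-Ig. The difference of 0.92 ± 0.24 came without overlap (exact permutation *P* = 0.0286), and Retnla minus Cd163 gave 0.91 ± 0.20 (exact permutation *P* = 0.0286). Retnla minus Chil3 overlapped between these groups, with a difference of 0.74 ± 0.43 (exact permutation *P* = 0.143). With mice paired by number, a pairing that no label states, all 3 were positive in 4 of 4 pairs. They gave a *P* of 0.125 in the exact sign-flip test. That is the smallest value 4 pairs can give, so the paired test cannot compare the 3 differences. The lowest pair was 0.0470 for Retnla minus Chil3, 0.51 for Retnla minus Mrc1 and 0.54 for Retnla minus Cd163. In all, 11 of 18 differences had the smallest *P* the test can give.

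**Figure D3:**
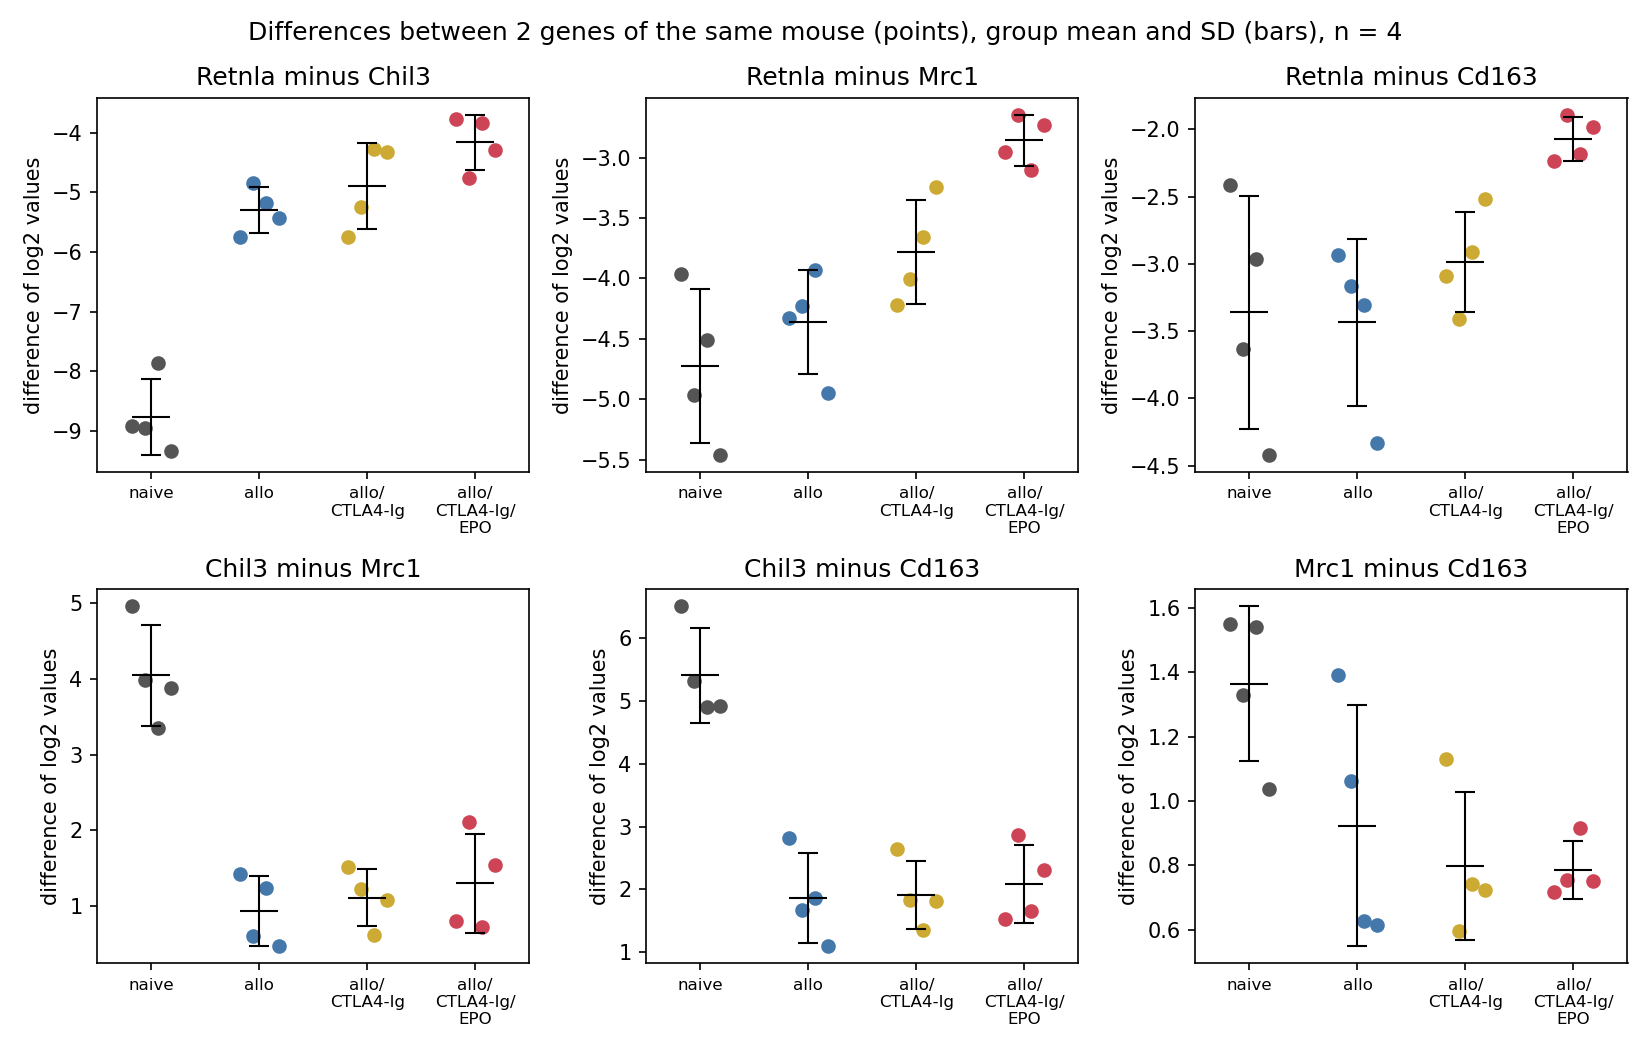
Difference between the log2 values of 2 genes in the same mouse (y axis) by treatment group (x axis), 1 panel per gene pair. Points are mice and bars the mean and SD (n = 4), and the 3 panels that hold Chil3 set naive mice apart from the other groups.

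Whether the 4 genes moved together between mice of 1 group was examined on deviations from the group mean over 16 mice. Permutation was exact and within groups, two-sided, over 6 gene pairs. Mrc1 and Cd163 gave a Pearson *r* of 0.27 (permutation *P* = 0.343) and a Spearman rho of 0.33 (permutation *P* = 0.249), with 12 of 16 mice on the same side of both means. Without the 2 mice farthest from the median of the first gene, *r* was 0.56. For Retnla and Chil3 *r* was 0.36 (permutation *P* = 0.304) and rho 0.25 (permutation *P* = 0.417), and *r* was 0.05 without 2 mice.

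The other 4 pairs did not pass either. Retnla and Cd163 had the *r* farthest from 0 of the 6 pairs, -0.42 (permutation *P* = 0.240) and a rho of -0.36 (permutation *P* = 0.262), and -0.27 without 2 mice. Retnla and Mrc1 had -0.05 (permutation *P* = 0.838), a rho of -0.14 (permutation *P* = 0.620) and -0.09 without 2 mice. Chil3 and Mrc1 had 0.17 (permutation *P* = 0.581), a rho of 0.12 (permutation *P* = 0.709) and -0.25 without 2 mice. Chil3 and Cd163 had -0.23 (permutation *P* = 0.491), a rho of -0.27 (permutation *P* = 0.367) and -0.01 without 2 mice. The same *r* over all 269011 gene pairs had a median of 0.06, with 5% below -0.54 and 5% above 0.62, and the 6 values over 16 mice lay inside that range, but Retnla and Cd163 reached -0.69 with 1 mouse left out. A shared difference between groups was therefore not accompanied by a detectable shared deviation within them at 4 mice per group.

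**Figure D4:**
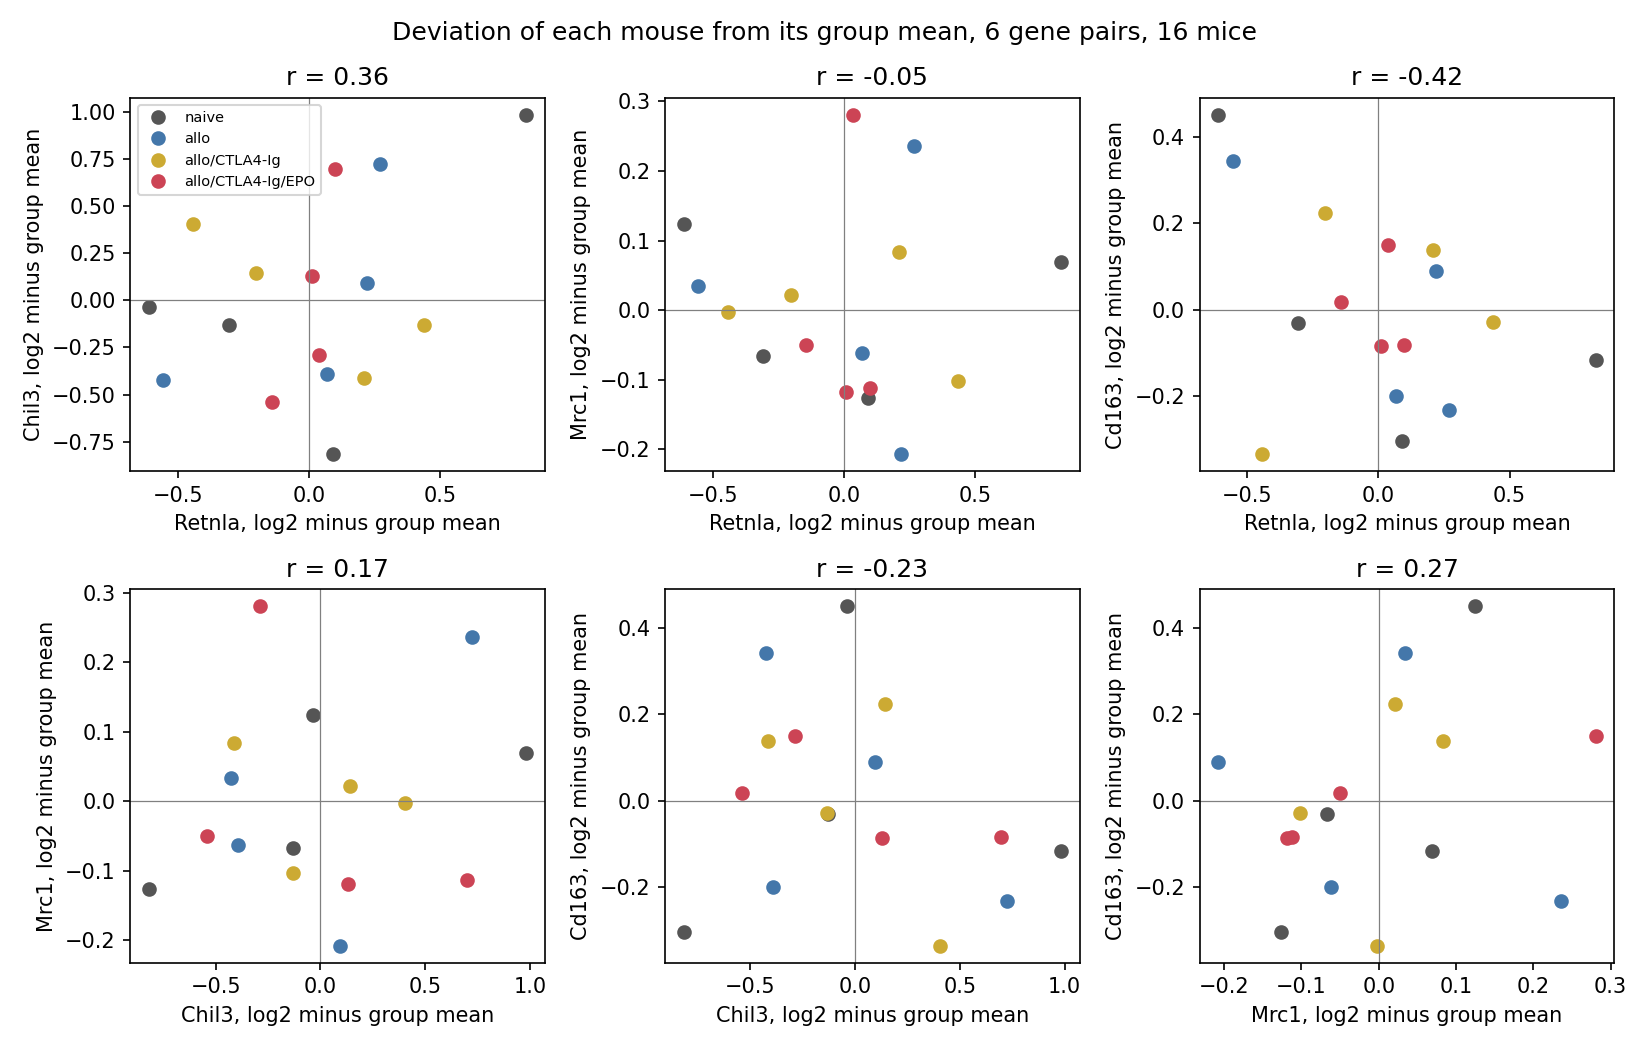
Deviation of each mouse from its group mean (log2) for the first gene of a pair (x axis) and the second (y axis), coloured by group, 16 mice per panel. Pearson *r* is printed above each panel and runs from -0.42 to 0.36.

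Genes most like each of the 4 were listed as a description, without a test. Over 16 mice, which includes the differences between groups, Mrc1 was most like C1qb (*r* 0.99), C1qc (0.99), Vcam1 (0.98), C1qa (0.98) and Col14a1 (0.97). Cd163 was most like Vcam1 (0.98), Sema6d (0.96), C1qc (0.93), Mrc1 (0.93) and Col14a1 (0.92). Retnla was most like Col14a1 (0.94), Prdx3 (0.92), Vcam1 (0.91), Mrc1 (0.91) and C1qc (0.90). Col14a1, Vcam1 and C1qc stood in all 3 lists. Chil3 had another set, Chil4 (1.00), Camp (0.99), Elane (0.98), Clec5a (0.97) and Fcnb (0.97), of which Camp and Elane encode granule proteins of the neutrophil lineage.

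Within groups Chil3 went with Chil4 (0.98), S100a8 (0.97), Ly6g (0.96), S100a9 (0.96) and Fpr2 (0.96). Chil4 is a close paralog of Chil3, and whether the probes tell them apart was not tested. Mrc1 went with C1qb (0.81), Vcam1 (0.81), C1qc (0.79), Apoe (0.74) and Ccr3 (0.74). Cd163 went with Tlr12 (0.73), Nr1h3 (0.72), Ifng (0.63), Vcam1 (0.60) and C1qc (0.58). Retnla went with Prdx1 (0.72), Ercc1 (0.70), Krba1 (0.70), Tspan8 (0.64) and Il4ra (0.63), none of which stood in the within-group lists of the other 3 genes.

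Marker lists of cells that the selection could hold were examined beside the 4 genes. Of all 734 genes, 22.8% were called higher and 28.3% lower with EPO than with CTLA4-Ig. Of 9 red pulp macrophage genes in the table, 9 were called higher with EPO than with CTLA4-Ig, with a median of 1.91 against -0.07 for all genes. They took 5.58%, 4.65%, 7.63% and 6.11% of all counts in EPO mice and 1.61%, 1.58%, 1.72% and 1.61% in CTLA4-Ig mice. In BALB/c spleen cells mice they took 1.95%, 1.68%, 1.74% and 2.04%, and in naive mice 0.709%, 0.948%, 0.981% and 1.12%. On the deposited scale 2 were called higher and 3 lower in BALB/c spleen cells mice than in naive mice (median 0.03). Of all 734 genes, 11.9% were called higher and 58.4% lower there. After median centring the split of the 9 was 5 and 1. With EPO, 8 were called higher than naive on the deposited scale, as were 9.13% of all genes. After median centring all 9 were called higher. Vcam1 was the most abundant in every group, and none of the 9 was at the lowest count throughout a group. Within groups the median *r* with these genes was 0.58 for Mrc1 and 0.46 for Cd163, but -0.02 for Retnla and 0.05 for Chil3.

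The 9 mature neutrophil genes of the table were set beside Chil3. These genes took 49.8%, 30.9%, 28.0% and 34.0% of counts in naive mice and 7.06%, 2.89%, 4.30% and 2.83% in BALB/c spleen cells mice. They took 5.05%, 4.54%, 3.00% and 3.38% with CTLA4-Ig and 8.22%, 16.2%, 10.6% and 12.4% with EPO. S100a9 was the most abundant in each group, and none of the 9 was at the lowest count throughout a group. On the deposited scale all 9 were called lower in BALB/c spleen cells mice than in naive mice, as were 58.4% of all 734 genes. After median centring 8 of the 9 were lower and 1 was not called, and after quantile normalization 8 were lower and 1 higher. With EPO 4 were called higher than with CTLA4-Ig, 1 (Cxcr4, -0.72) was lower and 4 were not called. Of all genes, 22.8% were called higher and 28.3% lower in that comparison. For EPO minus naive all 9 were called lower on the deposited scale, as were 61.7% of all genes. After median centring 9 were called lower and after quantile normalization 7. The median within-group *r* with these genes was 0.94 for Chil3, 0.35 for Retnla, 0.21 for Mrc1 and -0.11 for Cd163.

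Granulocyte progenitor and eosinophil genes were called in both directions with EPO. Against CTLA4-Ig, 22.8% of all 734 genes were called higher and 28.3% lower. Of 4 progenitor genes, Elane (2.54), Mpo (2.88) and Ctsg (3.12) were called higher than with CTLA4-Ig and Kit (-0.47) lower, and Mpo was the most abundant. The 4 genes took 0.375%, 0.507%, 0.467% and 0.549% of counts with EPO, 0.109%, 0.0810%, 0.0828% and 0.0700% with CTLA4-Ig, and medians of 0.0872% in BALB/c spleen cells mice and 0.292% in naive mice. On the deposited scale these 4 were not called for EPO minus naive (median -0.19), and 1 was called higher after median centring (median 0.33). Of all genes, 9.13% were called higher and 61.7% lower for EPO minus naive on the deposited scale (median -0.74). Of 6 eosinophil genes, Prg2 (3.92), Epx (3.00), Ear6 (3.37) and Ccr3 (2.72) were called higher with EPO than with CTLA4-Ig. Il5ra (-0.78) was called lower and Siglecf was not called. These 6 took 0.495%, 0.607%, 0.625% and 0.577% of counts with EPO against medians of 0.0602% with CTLA4-Ig, 0.0708% in BALB/c spleen cells mice and 0.141% in naive mice. For EPO minus naive 1 was called higher and 1 lower on the deposited scale (median 0.16), and 2 and 1 after median centring. Within groups the median *r* with the progenitor genes was 0.85 for Chil3, 0.47 for Mrc1, 0.20 for Retnla and -0.08 for Cd163. With the eosinophil genes it was 0.56, 0.39, 0.04 and 0.01 in the same order. The part of each of these lists in the results for the 4 genes was not tested.

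The remaining marker lists are given for EPO minus CTLA4-Ig as genes called higher and lower, where 22.8% and 28.3% of all 734 genes were. The counts were 3 and 0 of 7 for CD11b+ myeloid genes and 3 and 1 of 5 for classical monocytes (Chil3 included). They were 3 and 0 of 5 for basophils and mast cells, and 1 and 2 of 6 for dendritic cells. All 3 T cell and all 3 NK cell genes and the 1 B cell gene were called lower, and the 1 erythroid gene, Gata1, was called higher. Against naive mice these lists differed too. In BALB/c spleen cells mice all 7 CD11b+ myeloid genes (median -1.70) and all 5 classical monocyte genes (median -2.74) were called lower than naive. All 734 genes had a median of -0.65, and 58.4% of them were called lower. After median centring or quantile normalization 6 CD11b+ myeloid and 4 classical monocyte genes were called lower. Ms4a1 (1.48) and all 3 T cell genes (median 1.33) were called higher under each of these scalings, and Ms4a1 went from a median of 0.0875% to 0.489% of counts. With EPO, Ms4a1 (0.64) was called higher than naive on the deposited scale. On that scale 6 of 7 CD11b+ myeloid, all 5 classical monocyte and all 3 T cell genes were called lower, as were 61.7% of all genes. These counts were 4, 4 and 1 after median centring and 4, 2 and 1 after quantile normalization. Under each of these 2 scalings 1 CD11b+ myeloid gene was called higher. The part of cell composition in the comparisons with naive mice was not tested.

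Other genes of the alternative activation pathway were called in both directions. With EPO against CTLA4-Ig, 51.1% of all 734 genes were called, 22.8% higher and 28.3% lower. Of 10 genes of the IL-4 and STAT6 axis, 1 was called higher and 5 lower in this comparison, with a median of -0.38 (-0.07 for all genes). The gene called higher was Pparg (2.02 on the log2 scale), a nuclear receptor that takes part in alternative activation. Il4ra, the receptor subunit, was lower (-0.62), as were Jak3 (-0.76), Irf4 (-1.92), Klf4 (-0.92) and Socs1 (-0.54). Stat6 itself differed by -0.18 and was not called (limma adjusted *P* = 0.0757). It was called lower with a replicate block shared by all 4 groups (limma adjusted *P* = 0.0383). The cytokine genes Il4, Il13 and Il33 had at most 22, 18 and 4 counts in any mouse.

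Of 17 other alternative activation genes, 6 were called higher and 3 lower, 9 in all, where 51.1% of all 734 genes were called. Among the genes called higher were the eosinophil chemokine Ccl24 (4.04), the matrix gene Fn1 (2.33), the growth factor Igf1 (2.10), Chil4 (1.85) and the lipoxygenase Alox15 (1.38). Those called lower were the decoy receptor Il1r2 (-3.08), Egr2 (-0.97) and Tgm2 (-0.32). The median was -0.13. Relative to naive mice, Ccl24 (2.83) and Igf1 (1.37) were called higher with EPO and 7 genes were called lower on the deposited scale. Of all 734 genes, 9.13% were called higher and 61.7% lower there. The median was -0.50 for the list and -0.74 for all genes. The split of the 17 genes was 3 higher and 5 lower after median centring and 4 and 4 after quantile normalization. It was 3 and 8 in the fit with a replicate block, although naive and EPO mice were not read as paired. Their same-numbered mice gave *r* from -0.13 to -0.02 over all genes.

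Of 6 other scavenger receptor genes, Cd68 (1.36) was called higher with EPO than with CTLA4-Ig and Cxcl16 (-0.50) lower, and Marco (0.02) and Cd36 (0.03) were not called. Of 10 C-type lectin genes other than Mrc1, 2 were called higher, Clec1b (2.20) and Clec5a (1.53), and 3 lower. Classical activation genes numbered 22, of which 3 were called higher and 11 lower, with a median of -0.42, and 1 and 12 after median centring. Of all 734 genes, 22.8% were called higher and 28.3% lower on the deposited scale, with a median of -0.07. None of the genes fixed for haemoglobin and iron handling was among those analysed here.

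**Figure D5:**
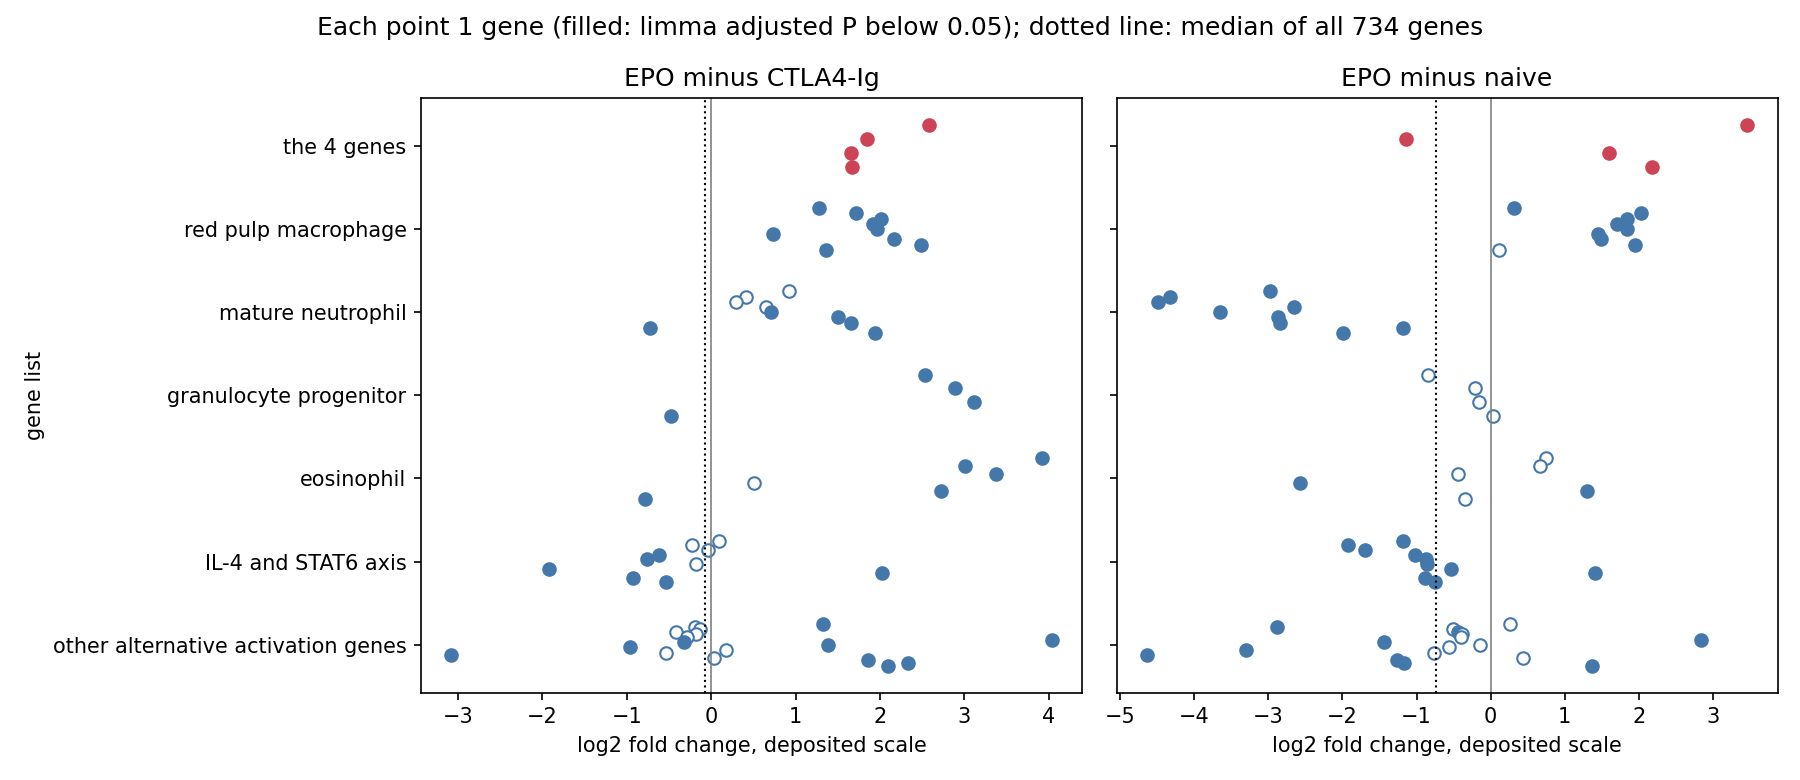
Log2 fold change on the deposited scale (x axis) of the 4 genes and of the genes of 6 lists (y axis) for EPO minus CTLA4-Ig and EPO minus naive, filled where the limma adjusted *P* was below 0.05. The dotted line is the median of all 734 genes, and all 4 genes and all 9 red pulp macrophage genes lie right of it in the first panel.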

How the data were processed

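Splenic CD11b+ cells of 16 mice were profiled with a NanoString panel. The log2 values deposited by the authors were used as given. They are normalized counts on a log2 scale, and dividing each mouse's unlogged values by its lowest gave whole counts for 100% of values (tolerance 0.001), with totals from 562760 to 912328 per mouse. A count of 1 may be a floor. All 16 mice entered 1 limma (3.58.1, R 4.3.3) fit of 4 group means, with 6 contrasts and Benjamini-Hochberg adjustment over 734 genes in each, called below 0.05. Exact permutation tests used scipy 1.17.1. Adjusted values over gene pairs or ratios alone are not given. Code was checked on simulated data. Alternatives covered scaling, test, filter, moderation, a replicate block over all 16 mice and single mice. Same-numbered EPO and CTLA4-Ig mice deviated together over all genes (*r* from 0.14 to 0.18 in each pair). The replicate numbers of these groups were therefore read as a possible pairing, from the data and not the design. No label states a pairing, and same-numbered BALB/c spleen cells and CTLA4-Ig mice gave *r* from 0.02 to 0.29. A paired sign-flip test of the ratios of EPO and CTLA4-Ig mice was added after the results were seen. The 5 most like genes per measure, and list members, were named. A listed gene that is withheld is not reported here. The 4 genes and the lists were chosen with earlier results of these data known. Symbols matched RefSeq for 724 of 734 genes, and 9 more matched as synonyms.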

Additional observations from a re-analysis of the deposited data

How the results depend on the processing

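Every call for EPO minus CTLA4-Ig and EPO minus BALB/c spleen cells in the 4 genes kept its direction and side of the threshold under each alternative run. With a replicate block shared by the mice of all 4 groups, limma called 400 genes for EPO minus CTLA4-Ig. The block was thus not a pairing of these 2 groups alone, and it changed no call of the 4 genes. Among listed genes in that comparison it added Stat6 and Pdcd1lg2 as lower and Selp and Itgb2 as higher. The paired sign-flip test, added after the data were seen, did not pass for Retnla minus Mrc1 (0.92) and Retnla minus Cd163 (0.91), nor can it with 4 pairs. The changes lay mostly in comparisons with naive mice and followed the scaling. In the order median centring, quantile normalization, total-count scaling and limma-voom, BALB/c spleen cells minus naive became a call for Retnla (1.29, 1.50, 1.64 and 1.62) and Mrc1 (0.92, 1.02, 1.28 and 1.28). CTLA4-Ig minus naive turned positive for Mrc1 (0.67, 0.74, 1.04 and 1.04). EPO minus naive lost its call for Chil3 with the first 2 (-0.63 and -0.32) and turned with the others (0.0465 and 0.0492). At an unadjusted *P*, Mrc1 was called in CTLA4-Ig minus BALB/c spleen cells (-0.25), with 70 genes in all.

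Leaving out 1 mouse at a time gave 0.36 to 0.83 for Retnla in BALB/c spleen cells minus naive, 0.41 to 0.66 for Cd163 in CTLA4-Ig minus naive and -0.21 to 0.17 for Chil3 in CTLA4-Ig minus BALB/c spleen cells, where 0 to 1 genes were called. Within-group *r* ran from -0.0423 to 0.49 for Retnla and Chil3, -0.21 to 0.10 for Retnla and Mrc1 and -0.0740 to 0.36 for Chil3 and Mrc1. It ran from -0.69 to -0.18 for Retnla and Cd163, -0.53 to -0.11 for Chil3 and Cd163 and 0.13 to 0.53 for Mrc1 and Cd163. Chil3 and Mrc1 also turned negative with median centring (-0.0351), quantile normalization (-0.12), total scaling (-0.30), no naive mice (-0.00703) and 2 mice left out (-0.25). Retnla minus Cd163 turned for BALB/c spleen cells minus naive with quantile normalization (0.22) and ran from -0.43 to 0.24 with 1 mouse left out. For EPO minus CTLA4-Ig, Chil3 minus Mrc1 (-0.0831 to 0.38), Chil3 minus Cd163 (-0.0846 to 0.42) and Mrc1 minus Cd163 (-0.0793 to 0.0993) also changed sign with 1 mouse left out. The cause of these changes was not tested.

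With 4 mice a group and Retnla at 12 to 24 counts in naive mice, small differences may have gone uncalled. The smallest detectable difference was not estimated. The conflict of the naive and BALB/c spleen cells codes affects each comparison that uses either group.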

Other observations

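Naive mouse 1 was at a recovered count of 1 for 2 listed genes that were measured in the other 15 mice. Irf8, a transcription factor gene on the dendritic cell list, had 560 to 1812 counts in those mice, and Clec1b, a C-type lectin gene, had 23 to 443. Over all genes, the counts of naive mouse 1 differed from the other naive mice by a chi-square per degree of freedom of 71.8 to 127. No other pair of mice within a group exceeded 44.6. Naive mouse 1 also had the highest Chil3 (14.40) and Retnla (5.48) of the naive mice. The cause was not tested.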
